A study of Mus musculus with 18 samples.

Results

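The 6 libraries taken 7 d after extraction of the mandibular first molar in mice fell into 2 sets of 3 that cut across the disease groups. The first set held periodontitis replicate 2 and control replicates 2 and 3, written here as P2, C2 and C3. The second set held periodontitis replicates 1 and 3 and control replicate 1, written as P1, P3 and C1. They are 6 of the 18 libraries of the series. The split was chosen from earlier results of these same counts, so every value that sets the first set against the second is a description and carries no test.

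The series profiled bulk RNA of extraction sockets, the bone and soft tissue that remain and heal after a tooth is pulled. Mice with periodontitis were set against control mice at 0, 3 and 7 d, with 3 biological replicates per group. The labels enter periodontitis and control under genotype, and no label gives the strain, the age, the sex or how periodontitis was induced. All animals, controls included, had the tooth extracted. Total counts per library lay between 14139830 and 15779514 in the first set, between 16838785 and 17763605 in the second set, and between 15676489 and 17643758 in the 12 libraries of 0 and 3 d. The first set was the shallower of the sets, and it nevertheless had more genes with a count, 24748 to 25699 against 23729 to 24284 in the second set. The part of sequencing depth in the values below was not tested. The 6 libraries were separate libraries: their counts differed by a chi-square of at least 9.29 per gene in every pair, far above sampling noise.

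A healing socket fills with a clot, then with granulation tissue, and then with woven bone laid down by osteoblasts. The fibroblasts and osteoblasts of that tissue secrete collagens, fibronectin, laminins and proteoglycans, enzymes fold and crosslink those chains, and osteoclasts and metalloproteases resorb and remodel the matrix. In bulk RNA, messages of the mitochondrial genome, messages that stay in the nucleus and messages of the secretory cells all compete for the same reads, so the share of one class depends on the others. Fewer cells of a type and less RNA per cell cannot be told apart in such libraries.

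The size of the split depended on how it was measured. Of 15579 genes whose levels averaged 1 CPM or more (CPM are read counts scaled to the library's total) over the 6 libraries, the sets did not overlap for 5109, or 32.8%. Of these, 2448 genes (15.7%) were higher in the first set and 2661 (17.1%) were lower. Periodontitis and control libraries did not overlap for 1495 genes, or 9.6%. A stricter size rule also asked for a fitted difference of at least 1 on the log2 scale, first minus second set with disease group in the model. It was met by 184 genes (1.18%) higher and 66 genes (0.424%) lower in the first set. By the same size rule 35 genes (0.225%) were higher and 360 (2.31%) lower in periodontitis than in control. The sets accounted for 25.7% of the variance of log2 CPM and the disease groups for 31.9%. Each figure was computed without regard to the other grouping, as were the counts of genes that did not overlap. Periodontitis and control libraries are unequally spread over the sets, so the variance figures can share a part. The split therefore exceeded the disease difference in the number of genes that did not overlap, and did not exceed it in genes past the size rule or in variance.

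In a principal component analysis of the 6 libraries the second component, with 25.2% of the variance, placed P2, C2 and C3 at 14.9, 11.9 and 39.2 and placed P1, P3 and C1 at -27.9, -29.2 and -8.83. The first component, with 40.3%, had P2 at one end (-59.2) and C1 at the other (40.5), so the extremes of the 2 sets were also libraries of opposite disease groups. Most differences between the sets were small: 5% of genes lay below -0.68, 5% lay above 0.75, and the median was -0.01. At the threshold, Ptpn4 and Col5a3 stood just inside the rule at 1.001 and -1.004, and AC121151.1 and Mfge8 just outside it at 0.9999 and -0.998. Leaving out 1 library at a time gave 204 to 465 genes higher and 75 to 250 lower in the first set, since fewer libraries make it easier not to overlap. The counts moved most without C1 (465 and 250) and also passed 1.5 times without P2 (282 and 227), C2 (280 and 141), P1 (294 and 103) and, for the lower genes, C3 (106).

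The 3 genes that mark the split were each about 1 log2 unit lower in the first set. Fn1 (ENSMUSG00000026193, GRCm38 chr1:71585520-71653200) encodes fibronectin, the adhesive glycoprotein that cells assemble into provisional matrix. It had 1043 CPM in P2, 972 CPM in C2 and 828 CPM in C3, against 1771 CPM in P1, 2236 CPM in P3 and 1968 CPM in C1. The lowest library of the second set stood well above the highest of the first. The fitted difference was -1.04, with -0.93 among periodontitis and -1.13 among control libraries. Here and below, such values set P2 alone against P1 and P3, and C2 and C3 against C1 alone.

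Agt (ENSMUSG00000031980, chr8:124556534-124569706) encodes angiotensinogen, the precursor that renin cleaves. Its level averaged 11.6 ± 1.38 CPM in the first set and 25.2 ± 2.67 CPM in the second (SD, n = 3 each), a difference of -1.15. Pltp (ENSMUSG00000017754, chr2:164839518-164857711) encodes a protein that transfers phospholipids between lipoproteins. It averaged 51.1 ± 4.81 CPM in the first set and 105 ± 12.4 CPM in the second, a difference of -1.13. Neither gene overlapped between the sets. Among the 7 genes measured of the renin-angiotensin list, the proteases Anpep (-0.95), Ace (-0.68) and Ctsd (-0.50) were also lower without overlap, while Mme (0.50) overlapped.

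**Figure D1:**
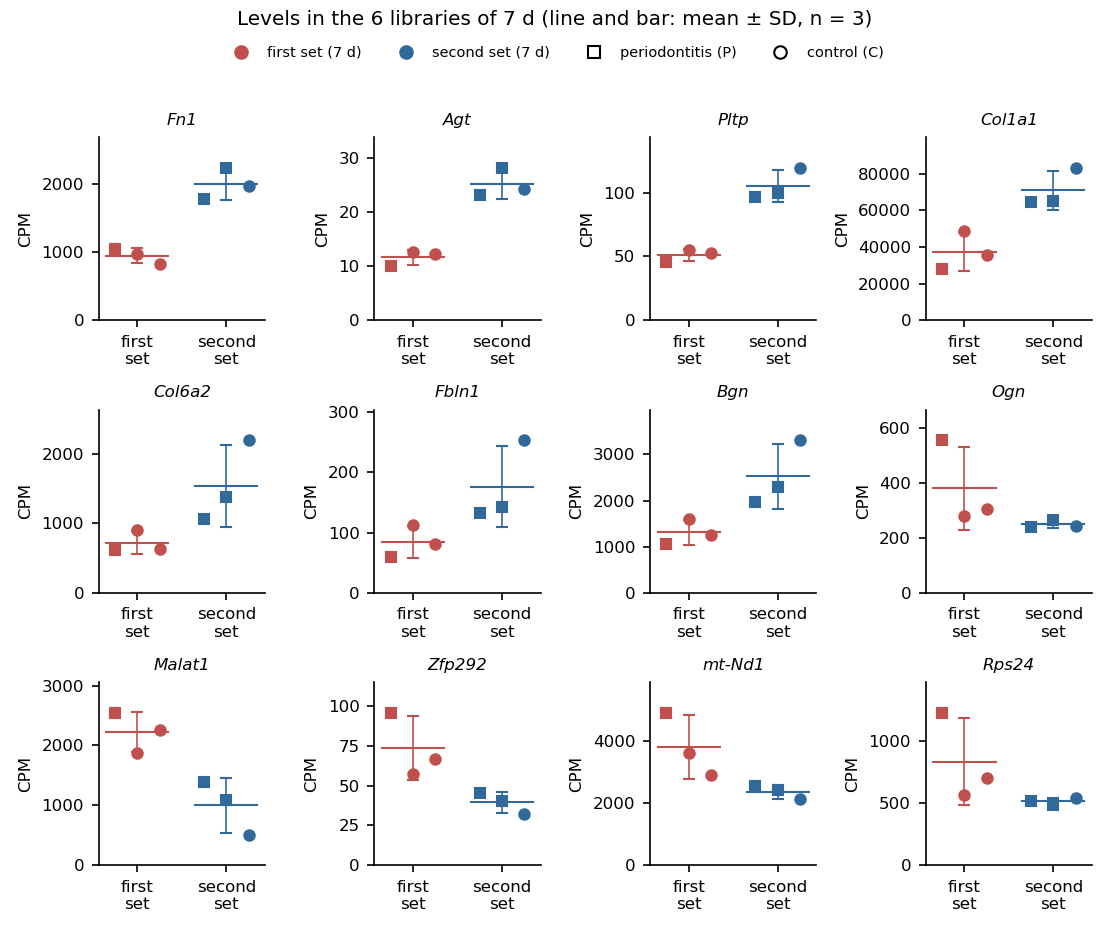
Levels in CPM of 12 genes in the 6 libraries of 7 d, each panel on its own linear axis that starts at 0. Squares are periodontitis, circles are control, red is the first set and blue the second, and the line with its bar is the mean ± SD of 3 libraries. Fn1 averaged 948 CPM in the first set and 1992 CPM in the second, and Malat1 averaged 2232 CPM in the first set and 997 CPM in the second.

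Many genes of the extracellular matrix were lower in the first set. Collagen genes took 8.0% of all counts in P2, 12.8% in C2 and 9.87% in C3, against 14.9% in P1, 15.4% in P3 and 18.5% in C1. The sets did not overlap. The 12 libraries of 0 and 3 d spanned 7.93 to 17.9%, so the first set was not outside the range of the series. Of 29 collagen genes measured, 10 were lower by the size rule and none higher. Without overlap, 18 were lower and 0 higher, or 62.1% of the list beside 17.1% of all genes, and the 10 are read beside 0.424% of all genes. Their median difference was -0.84, with -0.82 among periodontitis and -0.68 among control libraries, beside -0.01 over all genes.

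Col1a1, which encodes the main chain of type I collagen, had 27847 CPM in P2, 48961 CPM in C2 and 35637 CPM in C3, against 64467 CPM in P1, 65066 CPM in P3 and 83228 CPM in C1. Its lowest level was in P2 and its highest in C1, and the sets did not overlap (-1.10). The microfibrillar type VI chains were the most different collagens. Col6a2 averaged 717 ± 164 CPM in the first set and 1539 ± 589 CPM in the second (SD, n = 3 each; -1.25), and Col6a1 830.2 ± 183 CPM in the first set and 1757 ± 643 CPM in the second (-1.23). The chains of basement membranes followed, with Col18a1 at -1.20, Col4a2 at -1.19, Col4a1 at -1.11 and Col15a1 at -1.04. Col5a1 (-1.10), Col5a3 (-1.004) and the hypertrophic cartilage collagen Col10a1 (-1.12) completed the 10. Col10a1 had few counts and stood at -1.96 among periodontitis and -0.30 among control libraries. It differed by -0.33 without P2 and by -2.15 without C1. Not all collagens stood apart. Col3a1, the collagen of early granulation tissue, overlapped: it had 8420.4 CPM in P2, 15003 CPM in C2 and 9521 CPM in C3, against 11708 CPM in P1, 13584 CPM in P3 and 27212 CPM in C1. Col2a1, the cartilage collagen, differed by -2.45 among periodontitis and 0.38 among control libraries.

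Among 33 matrix glycoproteins measured, 5 were lower by the size rule and 0 higher, and 18 (54.5%) were lower without overlap, beside 17.1% of all genes. The median difference was -0.79. Fbln1, a fibulin that binds fibronectin and basement membranes, differed most among the lower protein-coding genes averaging 10 CPM or more (-1.29). It had 59.9 CPM in P2, 113 CPM in C2 and 81.5 CPM in C3, against 132 CPM in P1, 143 CPM in P3 and 254 CPM in C1, so that C2 came close to P1. Lamc1, the gamma chain of most laminins, differed by -1.12 and Fbn1, the core of microfibrils, by -1.06. Ecm1, a secreted matrix glycoprotein, differed by -1.07, with -0.38 among periodontitis and -1.74 among control libraries. It stood at -0.40 without C1 and at -1.75 without P2. The bone glycoprotein Sparc had a smaller difference (-0.69), without overlap. Postn, which encodes periostin of the periodontal ligament and periosteum, averaged 5858 ± 671 CPM in the first set and 5449 ± 1509.9 CPM in the second, with overlap and a difference of -0.01.

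Small leucine-rich proteoglycans, which coat collagen fibrils, went both ways. Prelp averaged 26.2 ± 2.75 CPM in the first set and 59.3 ± 11.2 CPM in the second (-1.15). Bgn, which encodes biglycan, had 1065 CPM in P2, 1605 CPM in C2 and 1252 CPM in C3, against 1967 CPM in P1, 2290.5 CPM in P3 and 3309.8 CPM in C1 (-1.11). Fmod, which encodes fibromodulin, was lower too (-1.09, and -0.71 without C1). Their relatives Dcn (decorin, 0.25), Aspn (asporin, 0.66) and Ogn (osteoglycin, 0.70) were higher in the first set without overlap. Ogn had 554 CPM in P2, 278 CPM in C2 and 304 CPM in C3, against 239 CPM in P1, 266 CPM in P3 and 243 CPM in C1. Most of its difference came from P2, and the control libraries differed by 0.26. Over the 17 proteoglycan genes measured, 3 were lower by the size rule, beside 0.424% of all genes. Without overlap 5 (29.4%) were lower and 3 (17.6%) higher, beside 17.1 and 15.7% of all genes, so the share higher was near that of all genes. The median was -0.31. That median was -0.09 without C1 and -0.54 without P2.

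Genes whose products process collagen were lower as well. Of 22 measured, 15 (68.2%) were lower and 1 was higher without overlap, beside 17.1 and 15.7% of all genes, with a median of -0.54. Pcolce, an enhancer of procollagen cleavage (-1.03), and Adamts2, which removes the amino propeptide (-1.02), passed the size rule. Serpinh1, the collagen chaperone, differed by -0.54. The 1 higher gene was Plod2, a lysyl hydroxylase, with 372, 373 and 393 CPM in P2, C2 and C3, against 334, 353 and 327 CPM in P1, P3 and C1 (0.17). Of 24 matrix proteases and inhibitors, 8 (33.3%) were lower without overlap, and Mmp2, a gelatinase of stromal cells, passed the size rule (-1.15). The median of that list was -0.56, or -0.35 without C1 and -0.85 without P2. Mmp9, the gelatinase of osteoclasts and neutrophils, was the most even of them, with 1471 ± 71.4 CPM in the first set and 2741 ± 124 CPM in the second (SD, n = 3 each; -0.91). Mmp13, the collagenase of osteoblasts and hypertrophic chondrocytes, overlapped and was highest in P2 (6184 CPM). Of 26 TGF-beta, BMP and IGF genes, 11 (42.3%) were lower and 1 was higher without overlap (median -0.58).

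Mitochondrial genes took a larger share of the first set. They held 4.14% of counts in P2, 3.21% in C2 and 2.68% in C3, against 2.20% in P1, 1.99% in P3 and 1.73% in C1. The sets did not overlap, and the 12 libraries of 0 and 3 d lay between 1.59 and 2.87%, so C3 was within their range and P2 and C2 above it. Of the 13 protein genes of the mitochondrial genome, 12 passed the 1 CPM filter. None met the size rule, 7 (58.3%) were higher without overlap, beside 15.7% of all genes, and the median difference was 0.69 (0.77 among periodontitis and 0.55 among control libraries).

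The 7 were mt-Nd1, mt-Nd2, mt-Nd3 and mt-Nd4 of complex I, mt-Cytb of complex III, and mt-Co1 and mt-Co2 of cytochrome oxidase. Levels of mt-Nd1 were 4903 CPM in P2, 3594 CPM in C2 and 2893 CPM in C3, against 2549.9 CPM in P1, 2404 CPM in P3 and 2112 CPM in C1. The gap between C3 and P1 was narrow. The difference of mt-Nd3, at 0.69, was 0.18 without P2 and 1.17 without C1. Differences ranged from 0.35 for mt-Nd6, the gene of the opposite strand, to 1.21 for mt-Atp6, whose levels overlapped and were highest in C2 (115 CPM). Several of these genes, mt-Atp6 and mt-Co3 among them, have near-identical nuclear copies, so their low counts are uncertain. Mitochondrial ribosomal RNA took 0.0786 to 0.147% of counts in the first set and 0.0459 to 0.0519% in the second, while the other 12 libraries ranged from 0.0430 to 0.179%.

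Nuclear genes of oxidative phosphorylation showed no common direction. Of 22 measured, 7 (31.8%) were higher and 8 (36.4%) lower without overlap, beside 15.7 and 17.1% of all genes. Both shares were thus above those of all genes. The median was 0.16, or -0.01 without P2 and 0.33 without C1. Atp5b, the beta subunit of ATP synthase, was lower in the first set, with 442 ± 27.8 CPM against 578 ± 11.8 CPM in the second (SD, n = 3 each; -0.42).

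**Figure D2:**
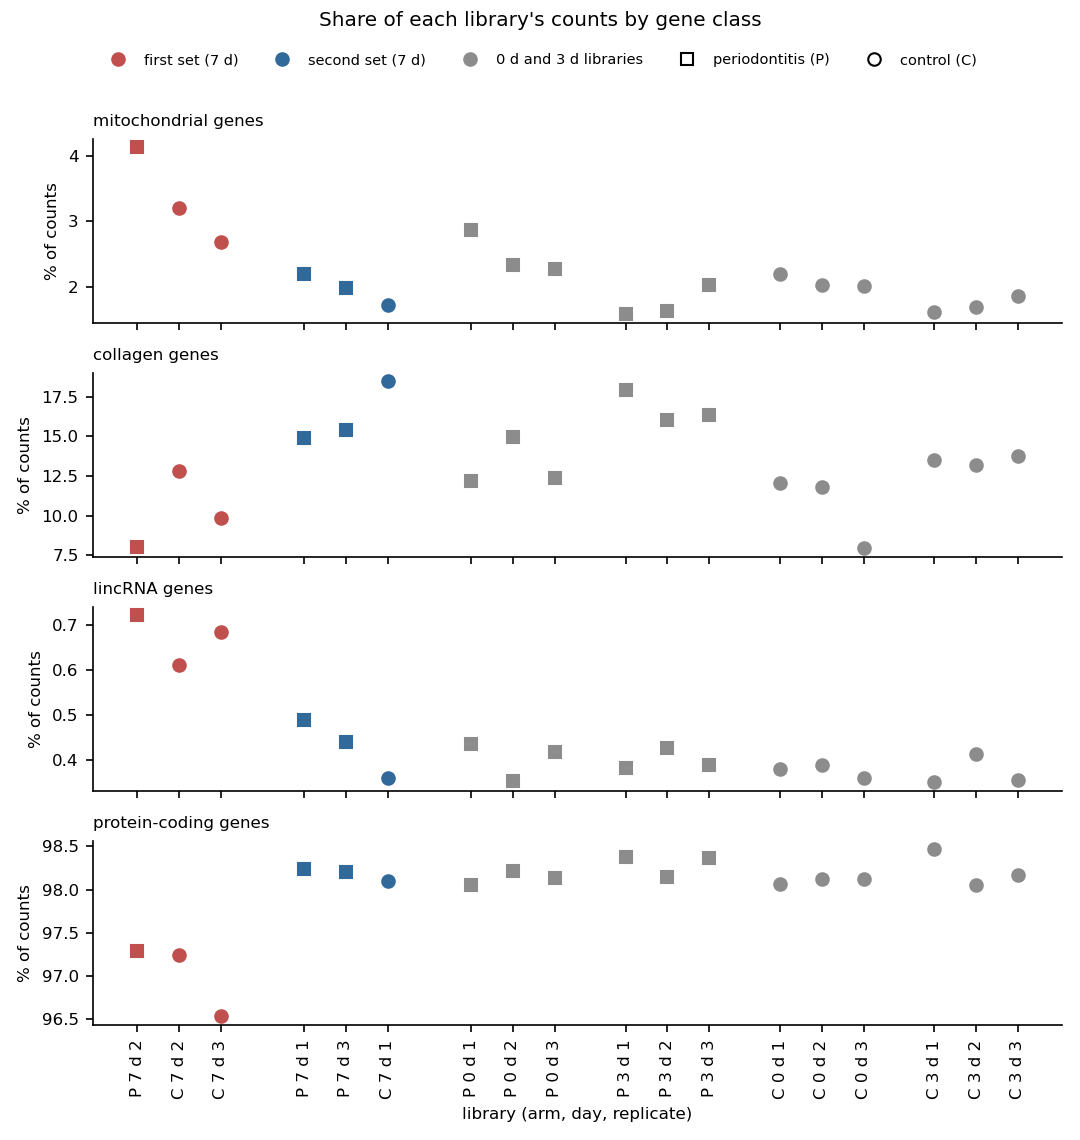
Share of each library's counts, in percent, taken by mitochondrial, collagen, lincRNA and protein-coding genes, with 1 point per library. Red is the first set, blue the second set and grey the 12 libraries of 0 and 3 d, on linear axes that do not start at 0. Mitochondrial shares were 2.68 to 4.14% in the first set and 1.73 to 2.20% in the second, and collagen shares were 8.0 to 12.8% in the first set and 14.9 to 18.5% in the second.

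Ribosomal protein genes and non-coding RNAs were higher in the first set. Of 20 cytosolic ribosomal protein genes listed, 14 (70%) were higher and 0 lower without overlap, beside 15.7% of all genes higher, with a median of 0.50. The difference was larger among periodontitis (0.62) than among control libraries (0.21), and without P2 the median was 0.21. Rps24, of the small subunit, had 1231 CPM in P2, 569.5 CPM in C2 and 700.3 CPM in C3, against 518 CPM in P1, 483 CPM in P3 and 541 CPM in C1. P2 stood far above the rest, and C2 was just above C1. Rplp0, of the stalk of the large subunit, overlapped (-0.08). Ribosomal protein genes have many processed pseudogenes, and reads could be split between them.

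Long non-coding RNA genes of the lincRNA class took 0.723% of counts in P2, 0.612% in C2 and 0.686% in C3, against 0.491% in P1, 0.440% in P3 and 0.360% in C1. All 3 libraries of the first set were above the 0.351 to 0.435% of the 12 others. P1 and P3 of the second set were above that range too, by less, and C1 was within it. Malat1, an abundant RNA of nuclear speckles, belongs to that class, so its counts are part of the share. It had 2549.5 CPM in P2, 1881 CPM in C2 and 2265 CPM in C3, against 1396 CPM in P1, 1091 CPM in P3 and 502 CPM in C1 (1.54). The share of the class without Malat1 was not computed. Kcnq1ot1, an imprinted nuclear RNA that silences genes in cis, averaged 20.7 ± 3.09 CPM in the first set and 10.7 ± 1.96 CPM in the second (1.10). Neat1, the scaffold of paraspeckles, overlapped, with 759 ± 17.0 CPM in the first set and 713 ± 73.2 CPM in the second (0.08). Of 8 nuclear-retained RNAs measured, 3 passed the size rule upward (Malat1, Kcnq1ot1 and Gm26917), beside 1.18% of all genes. Gm26917 is annotated as a lincRNA, and whether its reads come from such an RNA was not tested. Without overlap 4 (50%) were higher and 0 lower, beside 15.7 and 17.1% of all genes.

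Of the 184 genes higher in the first set, 88 were protein-coding, 33 were of the class TEC, provisional loci awaiting experimental evidence, 15 were antisense, 15 were processed pseudogenes and 10 were lincRNAs. Of the 66 lower genes, 60 were protein-coding. Of all 15579 genes measured, 13747 were protein-coding, 347 antisense, 416 processed pseudogenes and 352 lincRNAs. The TEC genes measured were not counted. Protein-coding genes thus made up a smaller share of the higher genes than of all genes. Protein-coding genes took 97.3% of counts in P2, 97.2% in C2 and 96.5% in C3, against 98.2% in P1, 98.2% in P3 and 98.1% in C1. The library kit named in the labels does not mark strand, so an antisense gene cannot be told apart from its partner. Ribosomal RNA overlapped between the sets (0.0723, 0.361 and 0.738% in P2, C2 and C3, against 0.0625, 0.144 and 0.327% in P1, P3 and C1).

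The 12 protein-coding genes with the most positive differences, among those averaging 10 CPM or more, were of varied function. Srp54b, a subunit of the signal recognition particle, had the largest (3.32), with 25.3 ± 5.09 CPM in the first set and 3.26 ± 3.10 CPM in the second (SD, n = 3 each). It has near-identical copies, so its count is uncertain. Zfp871, a zinc finger gene, had 45.2 CPM in P2, 19.4 CPM in C2 and 26.6 CPM in C3, against 8.53 CPM in P1, 7.25 CPM in P3 and 3.48 CPM in C1 (2.60). Bpifa1, a secreted protein of airway and oral epithelium, averaged 72.8 ± 15.4 CPM in the first set and 12.6 ± 8.03 CPM in the second (2.38). Gm38394 (1.92) and Zc3h11a (1.18) occupy almost the same stretch of chromosome 1 and can share reads. The others were Snrpe of the spliceosome (1.5), Zbtb37 (1.34), the DNA damage kinase Atr (1.15), Bdp1 of RNA polymerase III initiation (1.11), the lipid kinase Pik3c2a (1.08), Fam126b (1.07) and the zinc finger gene Zfp292 (1.06).

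The medians of the bone cell lists were nearer to 0 than those of the collagens and matrix glycoproteins. The transcription factors of osteoblasts differed little: Runx2 had 245 ± 20.7 CPM in the first set and 296 ± 10.3 CPM in the second (SD, n = 3 each; -0.31), and Sp7 had 501 ± 43.7 CPM in the first set and 572 ± 28.8 CPM in the second (-0.20), with overlap. Of 21 osteoblast regulators, 1 was higher and 9 (42.9%) were lower without overlap, beside 17.1% of all genes lower, with a median of -0.31. Bglap, which encodes osteocalcin, was 1053 CPM in P2, 2263 CPM in C2 and 2294 CPM in C3, against 2473 CPM in P1, 2436 CPM in P3 and 1452 CPM in C1. It therefore differed by -1.22 among periodontitis libraries and by 0.65 among control libraries. Of 12 osteocyte genes measured, 7 (58.3%) were lower without overlap, with a median of -0.50, or -0.20 without P2 and -0.82 without C1. Sost, which encodes the Wnt inhibitor sclerostin, and Reln passed the size rule downward (-1.25 and -1.17). Sost stood at -2.27 among periodontitis and -0.22 among control libraries, and at -0.22 without P2 and -2.33 without C1. In 18 osteoclast genes the median was -0.13 (-0.26 without C1), with 8 (44.4%) lower without overlap. Acp5, tartrate-resistant acid phosphatase, had 1579 ± 84.3 CPM in the first set and 1969.9 ± 47.9 CPM in the second (-0.32), and Ctsk, cathepsin K, overlapped (-0.03). The integrin Itgb3, which seals osteoclasts to bone, had 232 ± 6.31 CPM in the first set and 371 ± 26.8 CPM in the second (-0.66).

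Vessel genes were lower: of 23 endothelial genes 13 (56.5%) were lower and 0 higher without overlap (median -0.46), and of 13 mural cell genes 7 (53.8%) were lower and 0 higher (median -0.50), beside 17.1% of all genes lower. Their mean log2 CPM did not overlap between the sets either, so the vessel lists stood apart about as fully as the matrix glycoproteins. Of 23 monocyte and macrophage genes, 8 (34.8%) were lower and 2 higher without overlap (median -0.24, or -0.53 without C1 and -0.11 without P3). Gpnmb, a glycoprotein of lysosome-rich macrophages and osteoclasts, passed the size rule with 29.1 ± 7.61 CPM in the first set and 67.4 ± 9.11 CPM in the second (-1.15). Some blood and marrow lists had opposite signs in the disease groups, and those differences were not tested. Each such value rests on P2 alone in periodontitis or on C1 alone in control. A part of disease therefore cannot be told apart from the state of those libraries. Neutrophil genes differed by a median of -0.90 among periodontitis and 0.31 among control libraries, marrow myeloid precursors by -1.73 and 0.19, B and plasma cell genes by -0.97 and 0.88, and erythroid genes by -0.67 and 0.40. T and NK cell genes had the same sign in both (-0.11 and -0.48), as did monocyte and macrophage genes (-0.51 and -0.17). Cytokines and chemokines ran the other way, 0.65 among periodontitis and -0.98 among control libraries. The mean log2 CPM of the 18 neutrophil genes was 4.79 in P2, 6.80 in C2 and 6.74 in C3, against 5.60 in P1, 5.90 in P3 and 6.61 in C1, so that P2 was the lowest of all and the sets overlapped.

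Skeletal muscle genes had a median difference of -0.88, larger than that of the collagens, and 10 of 11 measured were below 0. The median was -0.33 without P1 and -1.13 without P3. Without overlap 2 (18.2%) were lower, Actn3 and Tnni2, close to the 17.1% of all genes, and Tnni2, a fast troponin, passed the size rule (-1.91). Its levels were 0.798, 0.849 and 0.892 CPM in P2, C2 and C3, against 10.7, 0.994 and 1.74 CPM in P1, P3 and C1. The mean log2 CPM of 11 skeletal muscle genes was 0.95 in P2, 1.05 in C2 and 1.01 in C3, against 3.13 in P1, 0.89 in P3 and 1.64 in C1, so it was highest in P1 and the other libraries of the 2 sets overlapped. Salivary gland genes, 6 measured, were highest in C3 (2.98) of the first set and C1 (2.24) of the second. Epithelial genes, 15 measured, had 0 members without overlap. Bpifa1, which is not on that list, did not overlap, as given above. Without the muscle, salivary gland, erythroid and mitochondrial lists in the counts and the totals, the size rule gave 194 genes higher and 65 lower in the first set, against 184 and 66 with them.

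**Figure D3:**
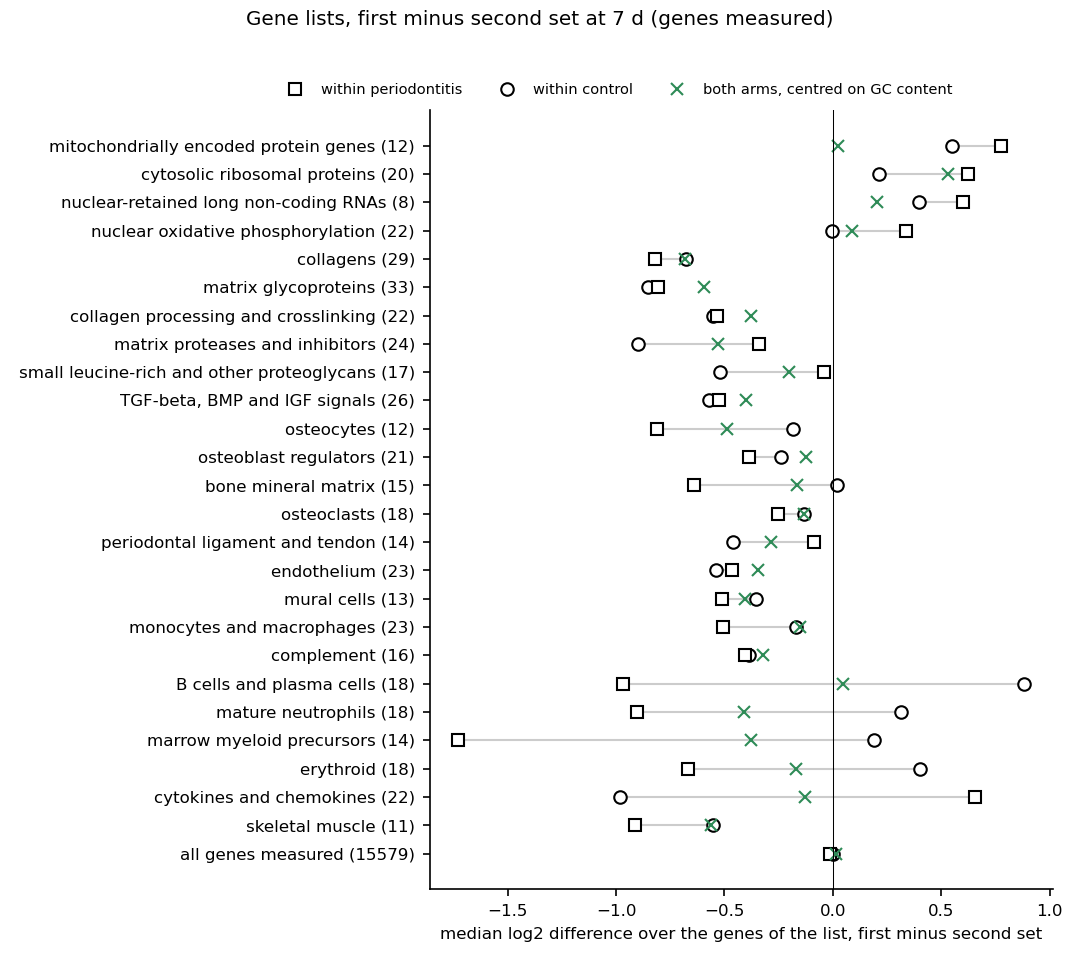
Median log2 difference, first minus second set at 7 d, over the genes of each list, with the number of genes measured in brackets. Squares are the difference within periodontitis libraries (P2 alone against P1 and P3). Circles are that within control libraries (C2 and C3 against C1 alone). Crosses are the difference over both after centring on GC content. Collagens stood at -0.82 within periodontitis and -0.68 within control, and B and plasma cell genes at -0.97 within periodontitis and 0.88 within control.

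Genes higher and lower in the first set differed in base composition. The sets were chosen from the counts of these same libraries, which carry that relation, so it is a description too. Taking for each gene the annotated transcript with the longest coding sequence, the median GC content was 42.5% over 183 of the 184 higher genes, 55.8% over the 66 lower genes and 50.3% over all 15567 genes with a value. The coding windows printed here show that contrast in 2 genes that were higher (Zfp292 and Ogn), a mitochondrial gene (mt-Co1) and 2 matrix genes that were lower (Bgn and Col6a2). Each is 90 bases of 1 coding exon, chosen for a GC content close to that of the whole coding sequence, read 5′ to 3′ on the coding strand from GENCODE M21 transcripts, with G and C in capitals.
Zfp292: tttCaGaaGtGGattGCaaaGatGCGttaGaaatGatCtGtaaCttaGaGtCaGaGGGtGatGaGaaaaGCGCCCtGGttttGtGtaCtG
Ogn: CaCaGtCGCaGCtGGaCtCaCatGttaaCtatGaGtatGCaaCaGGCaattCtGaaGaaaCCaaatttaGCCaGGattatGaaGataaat
mt-Co1: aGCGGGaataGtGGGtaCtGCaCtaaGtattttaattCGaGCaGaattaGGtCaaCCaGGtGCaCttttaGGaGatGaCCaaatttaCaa
Bgn: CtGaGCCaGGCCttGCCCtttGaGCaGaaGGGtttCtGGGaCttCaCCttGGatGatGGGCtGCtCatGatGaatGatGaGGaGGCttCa
Col6a2: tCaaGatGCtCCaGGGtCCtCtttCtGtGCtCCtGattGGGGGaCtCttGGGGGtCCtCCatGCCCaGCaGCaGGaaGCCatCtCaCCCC
In GRCm38 the windows lie at chr4:34819510-34819599, minus strand, exon 6 (Zfp292), chr13:49609245-49609334, plus strand, exon 2 (Ogn), chrM:5402-5491, plus strand, exon 1 (mt-Co1), chrX:73490826-73490915, plus strand, exon 2 (Bgn) and chr10:76615106-76615195, minus strand, exon 2 (Col6a2). They hold 38, 35, 36, 48 and 54 G or C bases of 90, in the order printed. Within the proteoglycan family, the higher Ogn (transcript GC content 36.3%) and Aspn (34.3%) thus stood against the lower Bgn (52.5%) and Prelp (53.8%).

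The relation ran through the whole transcriptome. Over 13737 protein-coding genes ordered by GC content, the median difference was 0.51 in the lowest decile (median GC content 40.3%), 0.28 in the next, -0.10 in the fifth and -0.24 in the highest (60.1%). In the lowest decile 56.6% of genes were higher and 0.218% lower in the first set without overlap. In the highest decile 2.98% were higher and 29.5% lower. The Spearman correlation across genes was -0.54 with GC content of the transcript, -0.51 with that of the coding sequence and -0.47 with that of the 3′ untranslated region. It was -0.07 with transcript length and -0.10 with mean level. Genes share the same 6 libraries and are not independent, so these are descriptions.

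**Figure D4:**
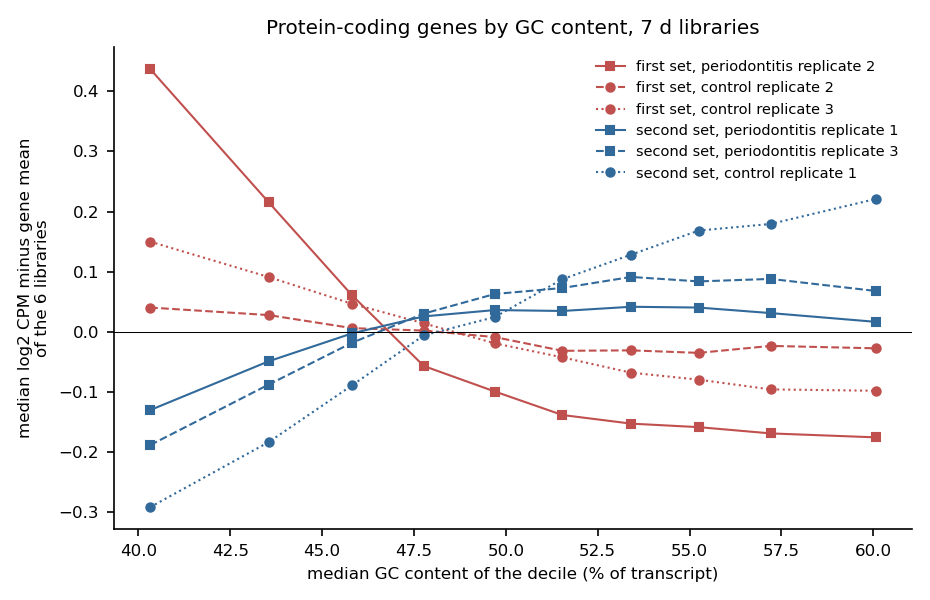
Median deviation of log2 CPM from each gene's mean over the 6 libraries of 7 d, for 13737 protein-coding genes in 10 deciles of transcript GC content. Each line is a library, red for the first set and blue for the second. In the lowest decile P2, C2 and C3 stood at 0.44, 0.04 and 0.15 and P1, P3 and C1 at -0.13, -0.19 and -0.29.

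The steepness differed within a set. P2 was highest toward low GC content and C2 was nearly flat. When each library was centred on genes of like GC content (40 bins, chosen after the data were seen), the size rule gave 120 genes higher and 22 lower, of which 85 and 17 were among the 184 and 66. The mitochondrial median then was 0.03, against 0.69 before, with 0 genes higher without overlap. The collagen median was -0.68 and the glycoprotein median -0.59, with 15 and 14 genes lower without overlap. The ribosomal protein median was 0.53, and Malat1 differed by 1.23. Fn1, Agt and Pltp differed by -0.94, -0.96 and -0.97, and Dcn, Aspn and Ogn by -0.06, -0.06 and -0.01. Relative to genes of like base composition, the first set was thus lower in collagens, glycoproteins and the marker genes and higher in ribosomal proteins and Malat1, with little left of the mitochondrial and osteoglycin differences.

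For the genes of the size rule and for the relation with GC content, the 12 libraries of 0 and 3 d lay nearer to the second set than to the first. This did not hold for every measure, since the collagen share of the first set was within the range of the 12 others. On a scale of all 18 libraries, the mean log2 CPM of the 184 higher genes minus that of the 66 lower genes was -1.60 in P2, -2.56 in C2 and -2.27 in C3, against -4.08 in P1, -4.18 in P3 and -4.86 in C1. The 12 libraries of 0 and 3 d lay between -4.53 and -3.57, so P1 and P3 were inside their range and C1 just below it. The 3 libraries of the first set were above all 12 others for 96 of the 184 higher genes and below all of them for 20 of the 66 lower genes. The second set was above all 12 for 5 of the 66 and below all for 4 of the 184. The tilt with GC content, the median deviation of the lowest minus the highest decile, was 0.88 in P2, 0.32 in C2 and 0.50 in C3, against 0.10 in P1, 0.01 in P3 and -0.27 in C1, and -0.39 to 0.19 in the 12 others. Since the genes were chosen for their difference at 7 d, the gap between the sets is fixed by that choice. That choice also makes it easier for either set to lie beyond the 12 others. The share of all genes that did so was not counted. The place of the 12 others is what these values add. Whether the first set was handled differently at extraction, library preparation or sequencing cannot be read from the labels, and its part was not tested.

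**Figure D5:**
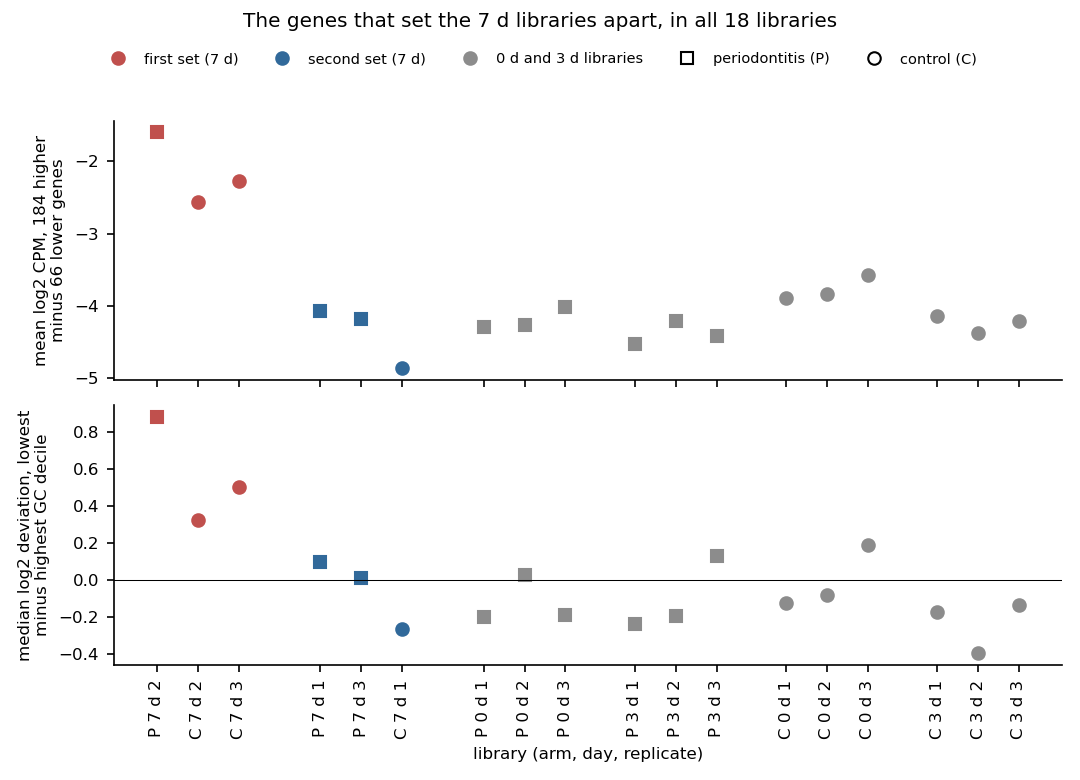
Values of each of the 18 libraries, red for the first set, blue for the second and grey for 0 and 3 d. The upper panel is the mean log2 CPM of 184 genes higher minus that of 66 genes lower in the first set, from -2.56 to -1.60 in the first set and -4.53 to -3.57 in the grey libraries. The lower panel is the median log2 deviation of the lowest minus the highest GC decile, 0.32 to 0.88 in the first set and -0.39 to 0.19 in the grey libraries.

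The same genes were followed between 3 d and 0 d in the 12 libraries that the split did not use. With edgeR's quasi-likelihood test and Benjamini-Hochberg adjustment over 17980 genes, 1807 (10.1%) rose and 2613 (14.5%) fell at 3 d in periodontitis mice. Of the 184 genes higher in the first set 170 were tested there, of which 8 (4.71%) rose and 17 (10%) fell, and of the 66 lower genes 8 (12.1%) rose and 5 (7.58%) fell. In control mice 3365 genes (18.7%) rose and 3585 (19.9%) fell over all genes. There 12 of 170 (7.06%) higher genes rose and 16 (9.41%) fell, and 19 of 66 (28.8%) lower genes rose and 4 (6.06%) fell. The shares of higher genes called were below the background in all 4 counts, and the share of lower genes that rose was above it in control mice. These gaps from the background were not tested. Only 29 of the 184 higher genes averaged 10 CPM or more at 7 d, against 36 of the 66 lower genes. Genes with few counts are harder to call, so a low share does not show that the higher genes were stable over time. The part of low counts was not tested. Across 15520 genes the difference between the sets had a Pearson correlation of -0.01 with the change over time in periodontitis and -0.05 in control mice.

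Fn1 rose at 3 d in both groups, by 0.53 ± 0.13 in periodontitis (SE, adjusted p = 0.0108, edgeR) and by 0.63 ± 0.13 in control mice (adjusted p = 0.00249, edgeR). Its levels were 2898, 2367 and 2843 CPM at 3 d and 1851, 1994 and 1737 CPM at 0 d in periodontitis mice, without overlap. Agt rose by 0.57 ± 0.14 in periodontitis (adjusted p = 0.0129, edgeR) and fell by 0.49 in control mice (SE 0.14, adjusted p = 0.0172, edgeR). The test of that difference gave an adjusted p of 0.138 (edgeR). Pltp differed by 0.36 ± 0.13 in periodontitis and 0.34 ± 0.13 in control mice, with adjusted p of 0.0682 and 0.0653 (edgeR). Cd248, a marker of perivascular fibroblasts, rose in both (1.35 ± 0.42 and 2.02 ± 0.43). Col18a1, Fbn1 and Prelp rose in control mice by 1.22, 1.38 and 1.17. Bdp1 fell in both, by 0.58 in periodontitis and by 1.08 in control mice. Of the 12 mitochondrial genes, 8 fell and 0 rose in periodontitis mice, and 2 fell and 0 rose in control mice. In periodontitis mice 38 set genes were called in all, and 17 without 3 d replicate 1 or 21 without 3 d replicate 3. Genes of autonomic ganglion neurons took 0.0903 to 0.287% of counts in 5 of the 12 libraries (periodontitis 3 d replicates 1 and 2, periodontitis 0 d replicates 1 and 3, control 3 d replicate 2) and at most 0.00831% in the others. Without those 5, which leaves each periodontitis group 1 library that is assumed to vary like the others, 6 set genes were called in periodontitis and 43 in control mice, against 51 in control mice with them.

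The sets also bore on the labelled comparison at 7 d. With disease group alone in the model, edgeR's quasi-likelihood test called 0 of 16871 genes (0%) between periodontitis and control, with 970 at an unadjusted p under 0.05 and a smallest adjusted p of 0.0873. DESeq2 called 278. With the set added as a term, edgeR called 19 genes (0.113%), 1 higher and 18 lower in periodontitis. Because the sets were chosen from these same libraries, those calls are a description of how much spread the sets took up. Leaving out C2 gave 138 calls, and leaving out C1 gave 1.

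The p-values of the fit with the set are not given for single genes, since the set was drawn from the same values. Crabp1, a binding protein of retinoic acid, had 4.12, 4.51 and 7.48 CPM in P2, P1 and P3, against 24.2, 21 and 36.8 CPM in C2, C3 and C1. With disease group alone it differed by -2.34 ± 0.30 (SE, adjusted p = 0.0873, edgeR), which missed the threshold. Vit, which encodes the matrix protein vitrin, differed by -1.96 ± 0.25 in that fit (adjusted p = 0.0873, edgeR) and Col9a2, a collagen of cartilage, by -2.20 ± 0.35 (adjusted p = 0.148, edgeR). Dspp, the precursor of dentine phosphoprotein, had 0 CPM in P2, 0.0609 CPM in P1 and 0.234 CPM in P3, against 2.48 CPM in C2, 0.654 CPM in C3 and 19.5 CPM in C1. Its level in C1 stood apart from both other controls. The gene that was higher, Sumo2, a small ubiquitin-like modifier with processed pseudogenes that can share its reads, had 72.2, 65.5 and 53.4 CPM in P2, P1 and P3, against 20.4, 21.5 and 11.8 CPM in C2, C3 and C1 (1.83 ± 0.24 with disease group alone, adjusted p = 0.0873, edgeR). None of the 19 met the size rule for the split.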

How the data were processed

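Bulk RNA was sequenced from 18 mouse libraries (3 per disease group and day), as total RNA by TRIzol and the NEBNext Ultra kit, per the labels' protocols. The authors deposited raw read counts per gene for 54532 genes. The submitters' processing notes name HISAT2, StringTie, SAMtools and mm9, without versions, yet 98.33% of the rows have the coordinates of GENCODE M21 on GRCm38, which is used here. For filters, the counting tool and its strand setting: not given in the sources used here.

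All members, gene lists and tests were chosen with earlier results of these data known. CPM used TMM factors (edgeR 4.0.16, R 4.3.3): over the 6 libraries for 7 d, over all 18 for other days. It is not scaled by gene length, so levels are compared within a gene. Log2 CPM used a prior count of 2. Differences between the sets came from the quasi-likelihood fit with disease group and set as terms. Tests used edgeR with Benjamini-Hochberg adjustment at 0.05. The fit over 3 d and 0 d used 12 libraries and 4 groups. Fits were tested on simulated data. Alternatives were library totals, RLE factors, DESeq2 1.42.0, other filters, a replicate block and leaving out libraries; GC centring was chosen after the data were seen. Genes are named by rule: the markers, Col1a1, Runx2, Sp7, Bglap, Acp5, Ctsk, the mitochondrial genes, the 12 protein-coding genes with the largest difference each way at 10 CPM or more on average, and up to 4 members per list past the size rule. Others (among them Sparc, Postn, Ogn, Dcn, Aspn, Plod2, Neat1, Itgb3, Mmp9 and Mmp13) were chosen after their values were seen. P-values cover the spread between 3 biological replicates.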

Additional observations from a re-analysis of the deposited data

How the results depend on the processing

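With RLE factors the size rule gave 184 genes higher and 65 lower in the first set and 393 between the disease groups, close to 184, 66 and 395. With library totals, which move the median of all genes to 0.16, it gave 401, 21 and 399. A minimum mean of 10 CPM gave 29, 36 and 91, no low-count filter 2220, 266 and 1262, and a 1.5-fold limit 932, 640 and 707. GC centring gave 120 higher and 22 lower. Leaving out 1 library gave 204 to 465 higher, 75 to 250 lower and 434 to 672 between the disease groups. Genes called between the disease groups by edgeR numbered 0, against 278 with DESeq2, 431 with no low-count filter, 19 with the set as a term and 0 to 138 on leaving out 1 library. Set genes called over time numbered 38 in periodontitis and 51 in control mice. A fit of all 18 libraries gave 20 and 26, and leaving out 1 library gave 17 to 37 in periodontitis and 40 to 48 in control mice. Without the 5 libraries rich in ganglion genes, 6 were called in periodontitis mice.

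The replicate numbers showed no clear pairing of the samples: deviations of equal numbers correlated at 0.18, 0.06 and -0.14 at 7 d. Between 3 and 0 d they correlated at 0.39, -0.53 and -0.44 in periodontitis and at 0.06, 0.09 and 0.06 in control mice. These few values cannot exclude a pairing. With a replicate block 150 genes were called between the disease groups. Tnni2, a muscle gene, differed by -1.91, and by 1.36 with the block. Of 47 named genes that differed by at least 1 on the log2 scale, 0 had the opposite sign under GC centring, library totals, RLE factors or with a library left out. Most of them were named because they passed the size rule. Their kept sign under another scaling or without a library therefore follows largely from that choice and is no check of the split. The collagen median ranged from -0.97 to -0.67 with a library left out and was -0.67 under library totals and -1.25 with the block. The block moved other list medians too: glycoproteins to -1.15, mitochondrial genes to 0.36 (0.69 without it), proteoglycans to 0.10 (-0.31 without it) and skeletal muscle to 1.01 (-0.88 without it), so the last 2 took the opposite sign. Of 47 lists, 7 had the opposite sign with the block, 5 under library totals, 2 after GC centring and 0 with RLE factors. Depth limits genes near 1 CPM most.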

Other observations

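Gene families taken by their description, chosen after values were seen, extended the lists; over all genes 15.7% were higher and 17.1% lower without overlap. Of 545 zinc finger genes, most of them transcription factors, 167 (30.6%) were higher and 64 (11.7%) lower in the first set without overlap, with a median of 0.19, or 0.08 after GC centring. Of 95 cytosolic ribosomal protein genes, 53 (55.8%) were higher and 1 was lower (median 0.53, and 0.60 after GC centring). Of 14 cathepsin genes, the proteases of lysosomes, 6 (42.9%) were lower and 0 higher (median -0.30). Of 28 integrin genes, the receptors that bind matrix, 9 (32.1%) were lower and 2 higher (median -0.39), and of 11 laminin genes 5 (45.5%) were lower and 0 higher (median -0.56).

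In the non-coding classes the share of genes higher in the first set without overlap was a little above the 15.7% of all genes. It was 71 of 352 lincRNA genes (20.2%), 64 of 347 antisense genes (18.4%) and 86 of 416 processed pseudogenes (20.7%). Lower genes were 8 (2.27%), 6 (1.73%) and 18 (4.33%) of them, beside 17.1% of all genes. By the size rule 10, 15 and 15 were higher, beside 1.18% of all genes. The class medians were 0.31, 0.37 and 0.32, beside -0.01 over all genes, and 0.19, 0.37 and 0.33 after GC centring. Gm26917 is annotated as a lincRNA gene and has a GC content of 69.1%. It was higher in the first set, with 94.8, 197 and 193 CPM in P2, C2 and C3, against 48.4, 56.1 and 83.4 CPM in P1, P3 and C1. Its direction went against the general relation with GC content. Prg2, a granule protein of eosinophils, had 0.133 CPM in P2, 38.2 CPM in C2 and 35.6 CPM in C3, against 6.94 CPM in P1, 4.68 CPM in P3 and 27.6 CPM in C1.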
